A study of Mus musculus with 16 samples.

Results

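The miRNA content of non-allergic mouse lung was described from the 6 arrays of PBS-sensitised mice, which were all samples whose label gave PBS as the sensitisation, out of 16 arrays in the series. These were the 2 PBS/PBS arrays, from mice that were challenged with PBS, and the 4 PBS/OVA arrays, from mice that were challenged with 10 μg OVA (ovalbumin, the main egg white protein and here the allergen). All 6 came from specific pathogen-free BALB/c mice of 8 to 12 weeks, which had been injected intraperitoneally on day 0 with 1 mg Alhydrogel (an aluminium hydroxide adjuvant) in PBS, which the Methods of the study call saline, and without OVA, and had received no dexamethasone. Challenges were intranasal, from day 12 to day 15, and lungs were taken 24 h after the last of them. The labels and the Results of the study describe PBS/PBS mice as challenged with PBS, whereas its Methods state that all mice received OVA, and the labels were followed here. Whether lungs were perfused, and whether a sample held RNA of 1 mouse, is not given in the sources used here. The Alhydrogel injection was common to all 6 samples, so that no array showed the lung of an untreated mouse. The remaining 10 arrays, of OVA-sensitised mice with or without dexamethasone, were not used for any value below. No groups were tested against each other. With 6 arrays, the precision of all values is limited by this number.

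MiRNAs are short RNAs that are cut from a hairpin in a longer transcript, and either arm of the hairpin, named 5p or 3p, can be loaded into an Argonaute protein. The loaded strand pairs with mRNAs mainly through its seed, the bases that follow the first one, and lowers their stability and translation. Lung tissue holds endothelium, epithelium, smooth muscle, fibroblasts and blood-derived cells, each with miRNAs that are known to be concentrated in that cell type. In RNA of a whole organ, fewer cells of a type and less of a miRNA per cell cannot be told apart.

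The arrays were 1-colour Agilent miRNA arrays, on which total RNA labelled with Cy3 was hybridised. Each of 611 mouse miRNAs was measured by 20 spots of 1 to 4 different probes, and the scanner software reports for each miRNA a total gene signal, which is in arbitrary units, and a flag for detection. A level is given here as the share of the summed total gene signal of all mouse miRNAs detected on the same array, in percent, so that a rise of 1 bright miRNA lowers the share of all others. Signals of different miRNAs also depend on labelling and on probe binding, and the order of levels is an order of signal and not of molecules. Within a miRNA, the brightest of its probes exceeded the dimmest by a median of 2.31-fold among the 239 miRNAs detected on all 6 arrays.

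The sequences of the miRNAs that carried most of the signal are shown first, because shared seeds and near-identical members matter for reading the ranks. They are RefSeq mature sequences of GRCm38.p6, written 5′ to 3′ in lower case, with the seed, bases 2 to 8, in capitals. MiR-451, miR-126-3p and miR-21-5p are the brightest, the let-7 group is the brightest set with a common seed, the miR-29 group is the next brightest set with several members among the names with a sequence, and miR-23a-3p, miR-27a-3p and miR-24-3p come from 1 transcript.
miR-451: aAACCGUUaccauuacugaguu
miR-126-3p: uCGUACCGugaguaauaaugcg
miR-21-5p: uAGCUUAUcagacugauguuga
let-7f-5p: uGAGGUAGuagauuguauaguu
let-7a-5p: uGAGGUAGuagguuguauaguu
let-7c-5p: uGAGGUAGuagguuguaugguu
let-7b-5p: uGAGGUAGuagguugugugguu
let-7i-5p: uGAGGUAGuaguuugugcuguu
let-7g-5p: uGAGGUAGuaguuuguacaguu
let-7d-5p: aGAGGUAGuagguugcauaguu
let-7e-5p: uGAGGUAGgagguuguauaguu
miR-98-5p: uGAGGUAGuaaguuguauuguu
miR-29a-3p: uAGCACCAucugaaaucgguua
miR-29b-3p: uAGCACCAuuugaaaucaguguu
miR-29c-3p: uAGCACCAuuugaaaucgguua
miR-23a-3p: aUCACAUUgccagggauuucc
miR-27a-3p: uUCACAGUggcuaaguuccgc
miR-24-3p: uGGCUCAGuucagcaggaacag

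A sequence was found by name for 488 of the 611 mouse miRNAs and for 197 of the 239 detected on all arrays, and those with a sequence held 90.6% of the signal. MiR-451 lies at chr11:78073186-78073207 on the plus strand, outside any gene span of the annotation, and shares a transcript with miR-144. MiR-126-3p lies at chr2:26591402-26591423 on the plus strand within the span of Egfl7, a gene of endothelial cells. MiR-21-5p lies at chr11:86584120-86584141 on the minus strand within the span of Vmp1, a gene for a membrane protein of autophagy.

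Between 251 and 283 mouse miRNAs were detected on an array, with 270 and 283 in PBS/PBS and 251, 270, 262 and 277 in PBS/OVA. The lowest number was found in PBS/OVA and the highest in PBS/PBS, and the groups overlapped. All 6 arrays detected a common set of 239 miRNAs, which were 39.1% of those arrayed, and 296 miRNAs were detected on no array. A further 76 were detected on some arrays only, and 29 of these on a single array. Together, these 76 held 0.0941% of the signal, and the highest of them stood at rank 200. Single-array detections were unevenly spread, with 11 on PBS/OVA replicate 2, 11 on PBS/OVA replicate 4 and 7 on the other 4 arrays combined.

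The summed signal of the detected miRNAs was 509530 and 598505 units in PBS/PBS and 430491, 319706, 464671 and 354034 units in PBS/OVA. No spot was saturated. Levels of the miRNAs detected on all arrays spanned 16492-fold, from miR-451 down to miR-715. The order of the 239 miRNAs was similar on all arrays, with Spearman correlations between 0.945 and 0.998 over the 15 pairs of arrays (miRNAs as points, all measured with the same probes). PBS/OVA replicates 2 and 4 stood apart from the other 4 arrays, with median correlations of 0.971 and 0.973 with the others, compared to at least 0.993 for each of the remaining arrays. They were on different slides, replicate 2 with both PBS/PBS arrays and PBS/OVA replicate 3, and replicate 4 with PBS/OVA replicate 1. For many of the values below that were set by 1 of these 2 arrays, though not for all, the values of the other arrays are given.

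MiR-451, miR-126-3p and miR-21-5p were the brightest miRNAs, and let-7f-5p and let-7a-5p followed. MiR-451, a miRNA of maturing red cells, held 14.6% and 13.6% of the signal in PBS/PBS and 14.5%, 9.24%, 15.1% and 13.4% in PBS/OVA (mean 13.4% ± 2.14, SD, n = 6). It was the brightest miRNA on 5 arrays, and PBS/OVA replicate 2 was the exception. Without that array its mean was 14.3%. MiR-126-3p, a miRNA of endothelial cells that promotes vascular growth factor signalling, held 8.09%, 8.04%, 8.40%, 7.58%, 7.61% and 7.93% in the same order (mean 7.94% ± 0.311). All 6 arrays lay close together for this miRNA, with a coefficient of variation of 3.92%.

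MiR-21-5p, which is known to be induced in inflammation and injury, held 5.04% and 5.79% in PBS/PBS and 6.02%, 11.4%, 6.65% and 7.49% in PBS/OVA (mean 7.06% ± 2.28). The 2 PBS/PBS arrays were the lowest of the 6. This difference was not tested, and how many of all detected miRNAs split in this way was not counted. PBS/OVA replicate 2 was the highest by a wide gap. On that array miR-21-5p was the brightest of all miRNAs. Without that array the mean was 6.20%, and without PBS/OVA replicates 2 and 4 it was 5.88%. MiR-21-5p had the highest coefficient of variation of the 20 brightest miRNAs, with 32.2% over the 6 arrays and 14.9% without PBS/OVA replicate 2. The lowest was that of miR-23b-3p with 2.59%, and without PBS/OVA replicate 2 that of miR-23a-3p with 2.08%.

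The miRNAs from rank 4 to rank 10 were let-7f-5p (4.29% ± 0.141), let-7a-5p (3.69% ± 0.152), miR-23a-3p (3.24% ± 0.198), miR-142-3p (3.13% ± 0.386), let-7c-5p (2.91% ± 0.192), miR-26a-5p (2.66% ± 0.220) and let-7b-5p (2.34% ± 0.182). The let-7 members are known to restrain growth-promoting mRNAs in differentiated tissue, miR-26a is a regulator of growth and the Polycomb subunit Ezh2, and miR-142-3p marks all blood-derived cells. Ranks 11 to 20 were held by miR-24-3p, miR-720, miR-22-3p, miR-29a-3p, miR-27a-3p, let-7i-5p, miR-30a-5p, miR-29b-3p, miR-23b-3p and let-7g-5p, with means from 2.29% down to 1.41%. The entry miR-720 (2.14% ± 0.148) has since been withdrawn from the miRNA registry as a fragment of a transfer RNA. The miR-29 members are known to repress collagens and other matrix mRNAs, and miR-24, miR-23 and miR-27 are expressed in endothelium among other cells.

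**Figure D1:**
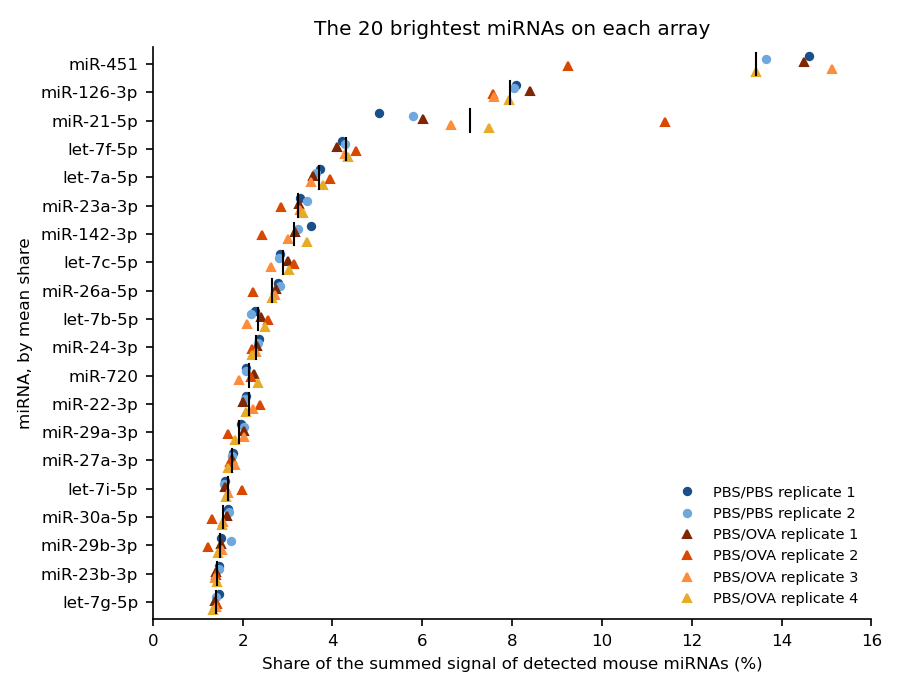
Share of the summed signal of detected mouse miRNAs (%, x axis) for the 20 brightest miRNAs (y axis, by mean share) on each of the 6 arrays, with circles for PBS/PBS, triangles for PBS/OVA and a black line at the mean. MiR-451 and miR-21-5p show 1 array, PBS/OVA replicate 2, far from the other 5, at 9.24% and 11.4%, whereas miR-126-3p lies between 7.58% and 8.40% on all arrays.

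Neighbours in the order were often not separated. Of the 20 neighbouring pairs from rank 1 to rank 21, 4 kept their order on all 6 arrays. These were miR-451 above miR-126-3p, miR-21-5p above let-7f-5p, let-7f-5p above let-7a-5p, and let-7a-5p above miR-23a-3p. MiR-126-3p exceeded miR-21-5p on 5 arrays, by 0.879 percentage points on average with an SD of 2.49. MiR-720 and miR-22-3p differed by 0.00455 percentage points with an SD of 0.228, and let-7b-5p and miR-24-3p exceeded each other on 3 arrays each. Among the 100 pairs of neighbours at the top of the order, 13 kept their order on all arrays. The set of bright miRNAs was more stable than their order, since 16 miRNAs were among the 20 brightest on every array and 24 on at least 1.

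The signal was concentrated in few miRNAs, and the degree of concentration hardly differed between arrays. On every array, 10 miRNAs held 50% of the signal, and between 50 and 54 miRNAs held 90%. The 5 brightest held 36.4% ± 0.726 (SD, n = 6), the 10 brightest 50.8% ± 0.746, the 20 brightest 68.6% ± 0.659 and the 50 brightest 89.7% ± 0.448. The share of the 10 brightest was 50.4% and 50.0% in PBS/PBS and 51.2%, 50.1%, 51.1% and 51.9% in PBS/OVA. PBS/OVA replicate 2 lay within the range of the other arrays for the 10 brightest but not for other measures. It had the lowest share of the single brightest miRNA (11.4%, against 13.4% to 15.1%), the lowest share of the 50 brightest (88.9%), and needed 54 miRNAs for 90% of the signal, against 50 or 51 on the other arrays. The exponential of the Shannon entropy, which gives the number of equally bright miRNAs that would be as evenly spread, was 47.1 ± 1.30.

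**Figure D2:**
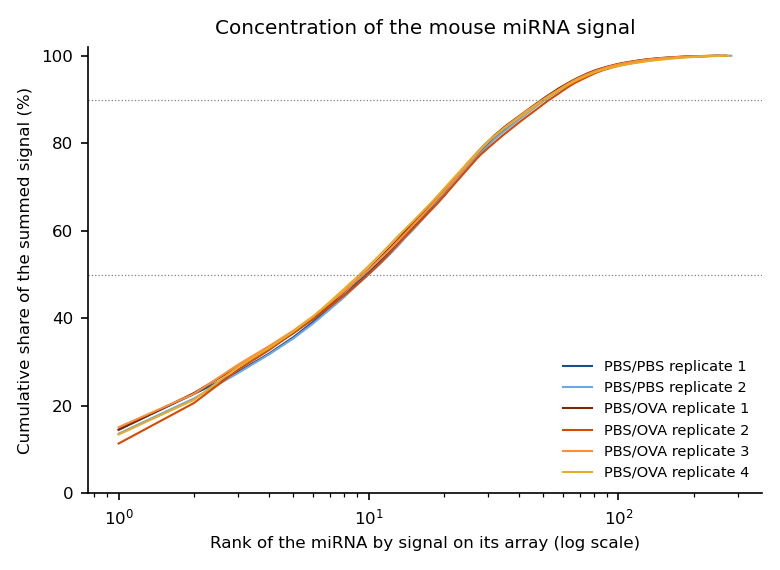
Cumulative share of the summed signal (%, y axis) against the rank of a miRNA on its own array (x axis, log scale), with 1 line for each of the 6 arrays and dotted lines at 50% and 90%. The 6 lines run nearly on top of each other beyond the first ranks and cross 50% at 10 miRNAs.

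By level, 26 miRNAs held at least 1% of the signal each and 76.0% together. Another 58 miRNAs between 0.1% and 1% held 20.7%, 85 between 0.01% and 0.1% held 2.85%, and 70 below 0.01% held 0.331%. The spread between arrays was similar in the 3 upper bands, with median coefficients of variation of 6.75%, 7.78% and 7.99%, and larger in the lowest band with 22.2%. The median width of the rank range over the 6 arrays grew from 3 places in the top band to 39 in the lowest. The 5 dimmest miRNAs detected on all arrays were miR-125a-3p, miR-449c-5p, miR-15b-3p, miR-28-3p and miR-715. MiR-125a-3p held 0.00453% on PBS/OVA replicate 2 and 0.000919% to 0.00128% on the other arrays. MiR-715 was measured at 3.20 to 3.77 units, at the level of the lowest detected signals of the arrays, which were 2.60 to 3.37 units.

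Of the 239 miRNAs, 192 varied by less than 2-fold between the 6 arrays and 47 by 2-fold or more. Among the 100 brightest, the 10 with the largest spread were miR-1224-5p, miR-449a-5p, miR-150-5p, miR-21-5p, miR-144-3p, miR-146b-5p, miR-142-5p, miR-1a-3p, miR-133b-3p and miR-451. They thus included both members of the red cell transcript, 2 muscle miRNAs and 2 miRNAs of lymphocytes and other blood cells. MiR-1224-5p, a miRNA made from a short intron without Drosha cleavage, held 0.129% and 0.107% in PBS/PBS and 0.102%, 1.52%, 0.125% and 0.106% in PBS/OVA. A single array, PBS/OVA replicate 2, set its mean of 0.349%, and on the other 5 arrays the values lay within a narrow range.

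MiR-150-5p, a miRNA of mature lymphocytes, was 0.0767% and 0.0605% in PBS/PBS and 0.0658%, 0.0330%, 0.0584% and 0.0694% in PBS/OVA. MiR-449a-5p, a miRNA of ciliated cells, was 0.161% and 0.125% in PBS/PBS and 0.238%, 0.323%, 0.114% and 0.165% in PBS/OVA. On PBS/OVA replicate 2, miR-451, miR-144-3p, miR-142-3p, miR-142-5p and miR-150-5p were at their lowest and miR-21-5p, miR-146b-5p, miR-1a-3p, miR-133b-3p, miR-449a-5p and miR-1224-5p at their highest of the 6 arrays. Other miRNAs of blood-derived cells did not follow, since on the same array miR-342-3p was at its highest with 0.137%, miR-155-5p was the second highest with 0.0265%, and miR-223-3p with 0.545% lay within the range of the others. Of the 47 miRNAs that varied by at least 2-fold, 41 were highest on PBS/OVA replicate 2 or 4, and without these 2 arrays 14 varied by 2-fold. Over all 239 miRNAs, 86 were highest on PBS/OVA replicate 2 and 38 on PBS/OVA replicate 4. The 47 were chosen by their spread, to which these 2 arrays contributed. The part of cell composition or of the OVA challenge in these values was not tested.

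**Figure D3:**
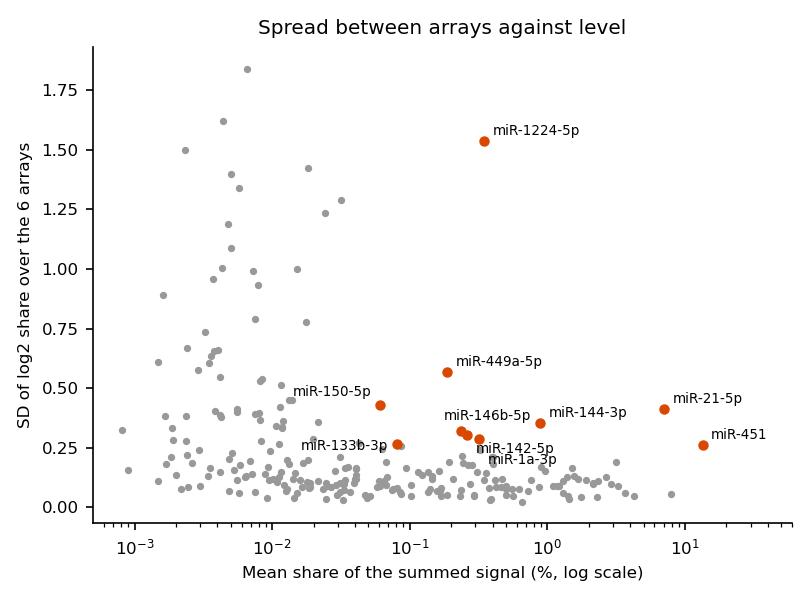
Standard deviation of the log2 share over the 6 arrays (y axis) against the mean share of the summed signal (%, x axis, log scale) for the 239 miRNAs detected on all arrays. The 10 miRNAs with the largest spread among the 100 brightest are orange and named, and most of the highly variable miRNAs lie at a low mean share.

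MiRNAs with a common seed share many predicted targets, and the 488 sequences fell into 402 seed families. The 123 names without a sequence are in no family, so that sums of families and their order leave out members such as miR-23b-3p, miR-30b-5p, miR-30d-5p, miR-195-5p and miR-497-5p, all detected on every array. Of the families, 28 had at least 2 members detected on all arrays, which were 80 miRNAs with 45.4% of the signal. The let-7 family, with the seed GAGGUAG, was the brightest with 18.2% ± 0.812 (SD, n = 6, range 17.4% to 19.7%), above miR-451 alone. All 9 arrayed members of the let-7 family were detected on every array. Let-7f-5p gave 23.6% of the family's signal, and the lowest member, miR-98-5p, was at 0.135% ± 0.00629 of the array's signal.

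The members differ from let-7a-5p at few positions, counted from 1 at the 5′ end, with the base of let-7a-5p first. Let-7f-5p carries G12A, let-7c-5p A19G and let-7e-5p U9G. Let-7b-5p carries A17G and A19G, let-7g-5p G12U and U18C, and let-7d-5p U1A and U16C. A probe for 1 member can bind others at this distance, so the split among let-7 members is less certain than their sum. Of the 18 among the 20 brightest miRNAs with a sequence, 9 had another arrayed miRNA with a sequence within 2 differences, and these 9 held 21.6% of the signal. Relatives without a sequence, such as miR-23b-3p for miR-23a-3p, could not be counted.

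Among names with a sequence, the families that followed let-7, miR-451, miR-126-3p and miR-21-5p were those of miR-29 (4.39% ± 0.396), miR-26 (4.05% ± 0.332) and miR-15 and miR-16 (3.47% ± 0.139). The miR-29 family held 3 members with the seed AGCACCA, all detected on all arrays, and miR-29a-3p gave 43.9% of its signal. The hairpins of the 2 members of the miR-26 family lie within the spans of Ctdspl, Ctdsp2 and Ctdsp1, which encode small phosphatases, and miR-26a-5p gave 65.7% of the family's signal. The family of miR-15a-5p, miR-16-5p, miR-15b-5p and miR-322-5p, which are known to repress cyclins and other cell cycle mRNAs, was shared more evenly, and its brightest member, miR-15a-5p, gave 35.0%. MiR-23a-3p, miR-142-3p and the family of miR-30a-5p completed the first 10 families by these sums, which together held 67.7%. The omitted miR-23b-3p held 1.43%, miR-30b-5p 0.755%, miR-195-5p 0.723%, miR-497-5p 0.622% and miR-30d-5p 0.498% of the signal. Added to their families, these members change the order, which holds only for names with a sequence.

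The 5p and 3p arms were compared within each array, as the log2 of the 5p signal over the 3p signal. Names that differ only in the arm gave 152 pairs on the array, and 89 had at least 1 arm detected on all 6 arrays. In 50 of these the 5p arm was brighter on all arrays and in 36 the 3p arm. The order of the arms differed between arrays in the other 3 pairs, those of miR-877, miR-467b and miR-467e, all of them dim. In each of them 1 array made the difference, which was PBS/OVA replicate 2 for miR-877 and PBS/OVA replicate 4 for the others. Where an arm was not detected, it was set to the lowest signal of a detected miRNA on that array, and the ratio is then a lower bound. Across all names, whether paired or not, 5p names held 46.5% ± 3.01 of the signal and 3p names 37.4% ± 1.10, and names without an arm, mainly miR-451 and miR-720, held 16.0%.

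Both arms were detected on all arrays in 38 pairs, 23 with a brighter 5p arm and 15 with a brighter 3p arm. In these, the brighter arm exceeded the dimmer by a median of 20.4-fold, and the ratio was stable, with a median SD of 0.15 on the log2 scale over the 6 arrays. The difference was at least 2-fold on all arrays in 33 pairs, at least 10-fold in 22 and at least 100-fold in 8. The largest mean ratio was that of let-7b, with the 5p arm above the 3p arm by 9.39 on the log2 scale (SD 0.95), which varied from 219-fold to 1532-fold between arrays. The 3p arm of let-7b varied 8.28-fold between arrays and was highest on PBS/OVA replicate 4, and without replicates 2 and 4 the lowest ratio was 493-fold. MiR-15b had the next ratio with 8.79 (SD 0.11), and its arms kept it within 389-fold to 474-fold.

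The 3p arm was brighter in miR-200b by 8.10 on the log2 scale (SD 0.32) and in miR-29a by 7.64 (SD 0.15). The 5p arm was brighter in miR-10a by 7.69, in miR-151 by 7.60, in miR-322 by 7.50, in miR-125a by 7.18, in miR-30b by 7.04 and in let-7d by 6.82. The spread of miR-10a came from 1 array, since PBS/OVA replicate 2 had a ratio of 8.82 and the other PBS/OVA arrays 7.41 to 7.58. In miR-125a the same array had a ratio of 5.76, and without replicates 2 and 4 the ratio was 7.21 to 7.60. In miR-322 it had 8.34, against 7.23 to 7.30 without these replicates. Let-7d had 6.10 on PBS/OVA replicate 4, and 6.82 to 7.15 without replicates 2 and 4. Bounds were higher still for pairs with 1 undetected arm. The 5p arm of miR-21 was at least 8034-fold above its 3p arm on every array, let-7g at least 1549-fold and miR-26b at least 1427-fold, while the 3p arm of miR-27a was at least 1944-fold above its 5p arm.

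At the other end, miR-140 had the most even arms among the 38 pairs. MiR-140, a miRNA of cartilage and other mesenchyme in the span of Wwp2, gave 0.264% ± 0.0328 for its 5p arm and 0.163% ± 0.0181 for its 3p arm, a difference of 0.69 (SD 0.13) on the log2 scale with the 5p arm higher on all 6 arrays. The remaining even pairs were miR-340 (0.70), miR-542 (-1.10), miR-574 (1.46), miR-139 (1.70), miR-324 (2.13), miR-31 (2.15), miR-532 (2.24), miR-30e (2.34) and miR-362 (-2.52). Under normexp background correction with an offset, which adds a constant to all spots, the sign turned for miR-340, miR-542, miR-574 and miR-532. Probes of a miRNA were summed there, so that an arm with more probes gained more of the constant. The dimmer arm had 3 probes against 2 in miR-340, and 4 against 2 in miR-542, miR-574 and miR-532. The turned sign therefore cannot decide the direction of these 4. In miR-574 the ratio ranged from 0.25 on PBS/OVA replicate 4 to 3.29 on PBS/OVA replicate 2, and from 0.93 to 1.52 on the other 4 arrays. In miR-139 it was 0.65 on PBS/OVA replicate 2, and 1.41 to 2.32 without replicates 2 and 4.

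Among the 100 brightest miRNAs, 45 belonged to pairs as the brighter arm, 25 as 5p and 20 as 3p. The 20 with a brighter 3p arm were miR-27a, miR-27b, miR-101a, miR-200a, miR-200b, miR-200c, miR-141, miR-338, miR-148a, miR-29a, miR-29c, miR-193, miR-19a, miR-331, miR-214, miR-22, miR-342, miR-126, miR-142 and miR-199a. The 3p arm of miR-126 exceeded its 5p arm by 4.81 (SD 0.15) on the log2 scale, that of miR-142 by 3.60 (SD 0.13), and that of miR-199a by 3.21 (SD 0.10). In miR-126 and miR-142 the dimmer arm was nevertheless bright, with 0.285% ± 0.0327 for miR-126-5p and 0.260% ± 0.0477 for miR-142-5p.

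**Figure D4:**
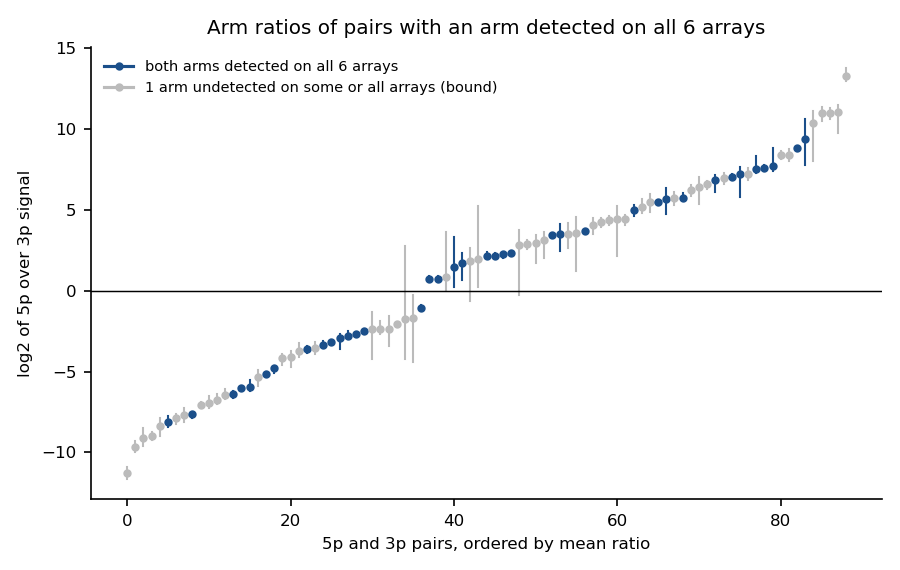
log2 of the 5p signal over the 3p signal (y axis) for the 89 pairs with an arm detected on all arrays (x axis, by mean ratio), with points at the mean and vertical lines from the lowest to the highest of the 6 arrays. The 38 pairs with both arms detected are blue, and grey pairs are bounds. Most lines are short and do not cross 0.

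The brighter and dimmer arms differed in base composition. In 71 pairs with a constant order and both sequences, the brighter arm began with U in 39 and the dimmer arm in 13, whereas the dimmer arm began with C in 31 and the brighter in 9. C was the last base of 24 dimmer and 4 brighter arms. The GC content was lower in the brighter arm in 45 pairs and higher in 21. Among single miRNAs, U was the first base in 83.3% of the 18 with a sequence among the 20 brightest, in 46.7% of those detected on all arrays and in 34.5% of those detected on none. The median GC content was 40.9% in the 84 with a sequence among the 100 brightest. It was 45.5% both in those detected on all arrays and in those detected on none, and 54.5% in those detected on some. The Spearman correlation of GC content and level across 197 miRNAs was -0.314, and these points share probe chemistry and are not independent. Argonaute proteins are known to favour U at the first base, and the probes' own dependence on base composition was not tested.

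MiRNAs of 1 transcript differed in signal. In 22 transcripts with at least 2 members detected on all arrays, the brightest member exceeded the dimmest by a median of 3.02-fold, from 1.16-fold to 30.01-fold, where each member was represented by its brighter arm. Some members, such as miR-16-5p and miR-30c-5p, are also made from a further locus, so their ratios are not those of 1 transcript alone. Even transcripts included miR-195 with miR-497 (1.16-fold, 1.10 to 1.24 between arrays) and miR-200c with miR-141 (1.20-fold). MiR-29a exceeded miR-29b by 1.29-fold, but miR-29b-3p is also made from a locus on chromosome 1. MiR-143-3p held 0.504% ± 0.0319 and miR-145-5p 0.0169% ± 0.00217, a difference of 30.01-fold (27.1 to 33.4 between arrays), although both are smooth muscle miRNAs of 1 transcript. MiR-19b-3p exceeded miR-18a-5p by 24.9-fold within the transcript of miR-17 to miR-92a, which is known to drive proliferation, and miR-19b-3p is also made from a second locus.

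MiR-451 exceeded miR-144-3p by 15.2-fold (13.3 to 16.9 between arrays). This ratio was stable although both members fell to their lowest share on PBS/OVA replicate 2. MiR-451 is known to be matured by Argonaute 2 without Dicer, unlike miR-144. In the transcript of miR-23a, miR-27a and miR-24, miR-23a-3p exceeded miR-27a-3p by 1.85-fold, but miR-24-3p is also made with miR-23b and miR-27b, and its 2.29% ± 0.0677 cannot be divided between the loci. The let-7a, let-7f and let-7d transcript held 9.31% of the signal, and let-7f-5p exceeded let-7d-5p by 3.29-fold. Let-7a and let-7f have further loci, too.

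Lists of miRNAs known for a cell type or tissue were compared with the lung. The red cell list held 14.3% ± 2.32 (SD, n = 6), with 2 of the 2 members found by name detected on all arrays. Its sum was 9.79% on PBS/OVA replicate 2 and 14.3% to 16.2% on the other arrays. The list also named miR-486, which was not found by name among the arrayed miRNAs and is missing from this sum. Whether it was arrayed under another name was not tested. The endothelial pair miR-126-3p and miR-126-5p held 8.23% ± 0.334. The list of other blood-derived cells held 4.14% ± 0.438, most of it in miR-142-3p, followed by miR-223-3p of neutrophils and macrophages with 0.550% ± 0.0292. MiR-155-5p, which is induced in activated lymphocytes and macrophages, was low with 0.0217% ± 0.00533, at rank 133.

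The epithelial list held 1.80% ± 0.0386 and varied least of the lists of lung cell types, relative to its mean, with 8 of 12 members detected on all arrays. Its leading members were the miR-200 group, which is known to repress Zeb1 and Zeb2 and to hold cells in the epithelial state. These were miR-200b-3p (0.502%), miR-200a-3p (0.459%), miR-200c-3p (0.349%), miR-141-3p (0.291%) and miR-429-3p (0.167%). MiR-205-5p, a miRNA of basal and squamous epithelium, was detected on 1 array only. The list of ciliated epithelium held 0.849% ± 0.0997, led by miR-34b-5p (0.403%) and miR-34c-5p (0.241%). Both were higher on the 2 PBS/PBS arrays than on the 4 PBS/OVA arrays. This difference was not tested, and how many of all detected miRNAs split in this way was not counted. MiR-449a-5p and miR-449c-5p of the same list had higher means in PBS/OVA (0.210% and 0.00167%) than in PBS/PBS (0.143% and 0.00111%), with overlapping groups. MiR-34b, miR-34c and miR-449a are known to act in the formation of motile cilia.

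The fibroblast list held 1.45% ± 0.0869, led by miR-199a-3p (0.868%), and the smooth muscle list 0.522% ± 0.0341. The list of striated muscle held 0.461% ± 0.0867, with miR-1a-3p at 0.321% ± 0.0637 and miR-133b-3p at 0.0805% ± 0.0146. Mouse pulmonary veins carry heart muscle in their walls, and parts of the heart can also adhere to a lung sample. MiR-208b-3p, made from an intron of a myosin heavy chain gene of heart and slow muscle, was detected on all arrays at 0.0122% ± 0.000781, whereas miR-208a-3p was detected on 1 array, and miR-206-3p and miR-499-5p on none. The part of adhering heart tissue was not tested.

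Lists of cell types that are better known from other organs were low or not detected. None of 23 miRNAs of a testis list and none of 3 of exocrine pancreas was detected on any array. The testis list included miR-882, although its locus lies in a chromosome 12 cluster described below. Of 22 miRNAs of pluripotent cells, none was detected on all arrays and 4 on some. The liver miRNA miR-122-5p was detected on 1 array only. Of 9 miRNAs of neurons and glia, miR-128-3p and miR-219-5p were detected on all arrays, at a sum of 0.0204% for the list, and miR-124, miR-9, miR-129 and miR-137 were not detected. MiR-375-3p, a miRNA of islets and neuroendocrine cells, held 0.0181% ± 0.00244. Of 3 miRNAs of kidney and gut epithelium, miR-192-5p and miR-194-5p were detected on all arrays and together held 0.0350%. Some of these miRNAs are also made in other cell types, and the lists describe where a miRNA is best known and not where it was made here.

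**Figure D5:**
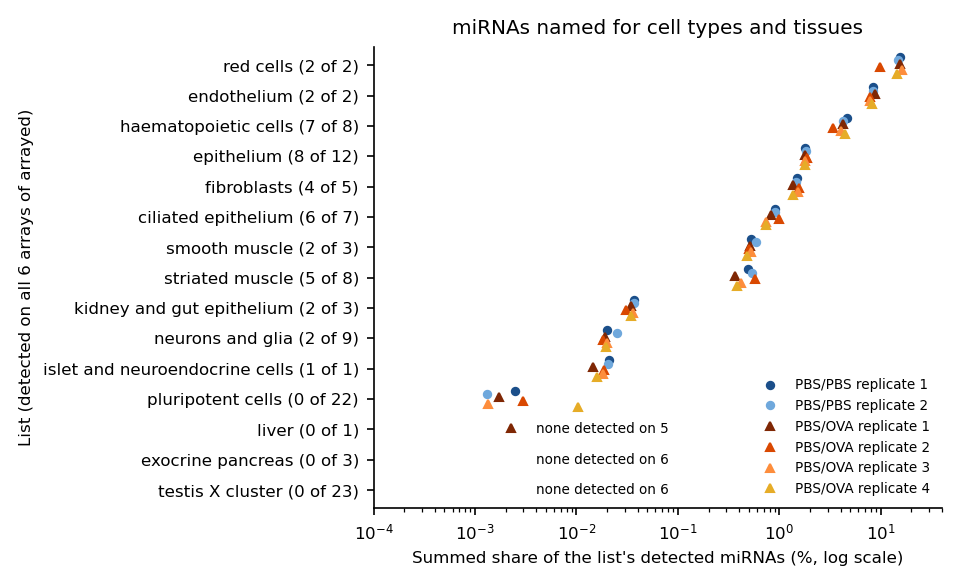
Summed share of the detected miRNAs of each list (%, x axis, log scale) on each of the 6 arrays, with circles for PBS/PBS and triangles for PBS/OVA. Labels on the y axis give how many of the arrayed members found by name were detected on all 6 arrays. Lists of cell types of the lung lie above 0.3%, and the remaining lists lie below 0.1% or had no detected member.

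Detection was uneven along the genome. Arrayed miRNAs whose loci lie within 50 kb of the next one on the same strand formed 5 clusters of at least 10 members. In the imprinted region of chromosome 12, the clusters from Mir1906-1 to Mir370 (chr12:109544588-109618326) and from Mir882 to Mir410 (chr12:109682207-109743784) held 24 and 47 arrayed miRNAs, of which 2 and 2 were detected on all arrays. These clusters are known to be active in embryo, placenta and brain. The cluster from Mir743 to Mir465 (chrX:66776760-66839121), known from testis, had no detected miRNA among 25, and the cluster from Mir291a to Mir295 (chr7:3218932-3220837), known from embryonic stem cells, had none detected on all arrays among 11. The cluster from Mir450b to Mir322 (chrX:53048008-53054327) had 7 of 11 detected on all arrays and 0.503% of the signal, mostly in miR-322-5p.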

How the data were processed

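Whole-lung total RNA had been extracted with phenol-chloroform, labelled with Cy3 and hybridised to 1-colour Agilent mouse miRNA arrays. Per the labels and methods, scanner images were read with Agilent Feature Extraction 10.7.3.1. The authors deposited the intensity of each spot and the total gene signal of each miRNA, after subtraction of the background around the spots and without scaling of arrays to each other. The deposited series table holds processed log2 values by older names, with an unstated scaling, and was used as an alternative only, for 164 of the 239 miRNAs detected on all arrays. These were matched by name stem and by values within 0.15 of the scanner's after removal of a constant per array, so agreement of single miRNAs is partly built in. The columns of this table had medians of -7.7 to -6.8, and their centring stays unknown.

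Control spots and 39 viral miRNAs were left out. Detection followed the software's flag, and an undetected miRNA, which the files list at 0.1 units, counted as 0 in mean shares. Ranks, shares, arm ratios, seed families and lists were computed with Python 3.11.15, numpy 2.4.6, scipy 1.17.1 and pandas 2.3.3, and plots were drawn with matplotlib 3.10.9. Normexp used limma 3.58.1 in R 4.3.3 on the median spot signal. The shares, arm ratios and family sums were tested on simulated data. Values are described without tests between groups. Errors are standard deviations over the 6 arrays, which may include differences between mice and technical differences. The software's own error of a detected signal had a median of 8.42% to 8.55% per array.

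Named miRNAs were the 20 brightest, the 5 dimmest detected on all arrays, the detected members of 15 cell type and 22 transcript lists, the 10 most uneven and 10 most even arm pairs, pairs with a brighter 3p arm among the 100 brightest, the members of 10 seed families and the 10 most variable of the 100 brightest. The miRNAs, lists and clusters were chosen with earlier results of these data known. Sequences and positions came from RefSeq on GRCm38.p6, with 12 of the 488 matched through a later name. Alternatives were 2 other detection rules, 5 other spot or background summaries, the deposited processed values, arms paired through a shared hairpin, 2 stricter rules for arms, the median over arrays, each group alone and leaving out each array.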

Additional observations from a re-analysis of the deposited data

Results flagged for a closer look

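A single array lay far from the other 3 PBS/OVA arrays, by the size of its gap relative to the range of the 4, in 9 of 120 values examined. The cut is meant to pass about 1 in 20 independent values. The 120 values are not independent, included miRNAs chosen for a large spread, and counted miR-23a-3p also as its seed family. The 9 can therefore not be set against that rate. PBS/OVA replicate 2 was the distant array in 7 of the 9. MiR-1224-5p was 1.52% of the signal on it, compared to 0.102% to 0.125% on the other 3. MiR-23a-3p, the only member counted in its seed family because miR-23b-3p had no sequence, was 2.86% against 3.26% to 3.34%, the miR-26 family 3.39% against 4.10% to 4.16%, and let-7i-5p 1.98% against 1.62% to 1.68%. The log2 ratio of the 5p over the 3p arm was 8.82 in miR-10a, against 7.41 to 7.58, and 2.14 in miR-532, against 2.32 to 2.35. PBS/OVA replicate 1 was the distant array for the arm ratio of miR-22, with -5.88 against -6.10 to -6.06, and for miR-122-5p, which was 0.00226% there and not detected on the other 3.

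The arrays also carry 39 viral miRNAs of mouse cytomegalovirus and murine gammaherpesvirus, which were left out of all shares. Of these, mcmv-miR-M23-1-5p, mcmv-miR-m88-1 and mghv-miR-M1-2-3p were detected on 6 of 6 arrays each, at 13.7 to 33.2, 13.2 to 34.8 and 22.0 to 30.2 units. Their signals were above those of 42, 43 and 49 of the 239 mouse miRNAs detected on all arrays. The remaining viral miRNAs were not detected, apart from mcmv-miR-M87-1 on 1 array. Why they were detected was not tested.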

How the results depend on the processing

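MiR-451 stayed the brightest miRNA under all alternatives run. Values of single miRNAs, families and arm pairs were counted as moved when they shifted by more than the spread between arrays. This held for 51 of 82 with the brightest probe only, 50 of 82 with normexp and 32 of 82 without outlier spots. It held for 22 of 82 under stricter detection and for 22 of 36 in the deposited processed values. None moved when 1 array was left out. Dropping 1 array cannot shift a mean by more than that spread, so this last count does not test robustness. With the brightest probe only, the brightest 1, 5, 10, 20 and 50 miRNAs held 12.3%, 34.1%, 49.2%, 67.9% and 89.1% of the signal. With normexp, the brightest 5, 10, 20 and 50 held 33.97%, 47.6%, 65.0% and 85.2%, and let-7 held 16.8%. The deposited processed values cover fewer miRNAs, and there the brightest 1, 5, 10, 20 and 50 held 15.7%, 40.8%, 55.8%, 74.0% and 92.8% and let-7 16.2%. On the PBS/PBS arrays alone, the 5 brightest held 35.5%. With both arms required on every array, the 5p arm was brighter in 23 pairs and the 3p arm in 15, since fewer pairs entered. Normexp turned the log2 arm ratio to -0.30 in miR-340, -0.50 in miR-532, 0.57 in miR-542 and -0.56 in miR-574. In each of them the dimmer arm had more probes and so gained more of the added constant. With detection taken from spots well above background, 173 miRNAs were detected on all arrays in place of 239. Leaving out 1 array gave 239 to 243 detected miRNAs, 50.6% to 51.0% for the 10 brightest, 17.9% to 18.3% for let-7, and 50 to 52 and 36 to 38 pairs with a brighter 5p and 3p arm. Leaving out PBS/OVA replicates 2 and 4 together was chosen after seeing the data and gave 247 detected miRNAs and 50.7% for the 10 brightest. Total signal divided by the number of spots was identical by construction. No paired analysis was possible because no groups were tested against each other. Dim miRNAs are limited by signal over background, below about 0.01% of the signal.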

Other observations

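The miRNAs that varied by at least 2-fold between arrays had a median GC content of 48.9% in the 36 with a sequence, and the others 45.5% in 161. The widest spread was that of miR-188-5p, which was highest on PBS/OVA replicate 2 with a range of 34.04-fold between the highest and lowest array, followed by miR-466f-3p with 20.3-fold and miR-877-3p with 19.1-fold, both highest on PBS/OVA replicate 4. MiR-671-5p and miR-1224-5p, with GC contents of 69.6% and 66.7%, were highest on PBS/OVA replicate 2 by 15.1-fold and 14.9-fold over the lowest array. MiR-494-3p, with 45.5%, was also highest there, by 10.2-fold. The GC content was 61.9% in miR-188-5p and 59.1% in miR-877-3p, but 50% in let-7b-3p, 40% in miR-669n and 36.4% in miR-466i-3p. The last 3 of these were highest on PBS/OVA replicate 4. These miRNAs were chosen after their values were seen, and the cause was not tested.

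Pairing arms through a shared hairpin in place of the name added loci whose arms carry different names. MiR-24-3p was brighter than both miR-24-1-5p and miR-24-2-5p on all arrays, and let-7a-5p and let-7f-5p were brighter than their 3p arms let-7a-1-3p and let-7f-1-3p. MiR-135a-1-3p was detected on all 6 arrays, while its 5p arm, miR-135a-5p, was detected on none.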
